A study of Mus musculus with 36 samples.

Results

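The genes described here are 10 members of the fibroblast growth factor (FGF) pathway in the embryonic mouse forebrain: the ligands Fgf8, Fgf15, Fgf17 and Fgf18, the receptors Fgfr1, Fgfr2 and Fgfr3, and the feedback genes Spry1, Spry2 and Etv5. They were taken by symbol from 46603 genes in each of the count tables, and all 10 were found in both. Messenger RNA was sequenced from the neocortex at embryonic day (E) 12.5, with 1 embryo per library, and from the telencephalic vesicles at E10.5, with 2 embryos pooled per library. There were 3 libraries in each of 6 groups, all on the C57Bl/6J strain, and replicates came from different litters.

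The E12.5 groups were Chd8 +/+ (wildtype), Chd8 +/- (1 null allele, made by deletion of exon 3), Chd8 neo/neo (a cassette between exons 3 and 4 in both alleles, which lowers expression) and Chd8 neo/- (that allele over the null). The E10.5 groups were cKO (Sox1-Cre; Chd8 f/f) and Ctrl (embryos with floxed Chd8 alleles, f/f or f/+, as the label gives a combination). Sox1-Cre acts in the neural lineage, so that non-neural cells in the dissected tissue kept CHD8, a chromatin remodeller linked to autism. Only exon 3 is removed, and Chd8 counts therefore remain after deletion. Chd8 stood at 237 ± 2.41 CPM (counts scaled to library size; SD, n = 3) in +/+, 167 ± 3.03 in +/-, 209 ± 5.64 in neo/neo and 149 ± 8.37 in neo/-. It ranged from 159.9 to 183.5 CPM in Ctrl and from 115.7 to 125.3 in cKO, and no mutant group overlapped with its control. These counts cover the whole gene and do not rank the E12.5 genotypes by CHD8 dosage. The paper describes aberrant splicing of Chd8 transcripts into the cassette. By its Western blots, full-length CHD8 protein was lower in neo/neo than in +/- and lowest in neo/-.

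FGF ligands are secreted proteins that bind receptor tyrosine kinases and signal mainly through Ras and the ERK kinases. Fgf8 and its relatives Fgf17 and Fgf18 are made at the front of the telencephalon, where they help to set the size of the frontal cortex, and Fgf15 is made more broadly in the early forebrain. Sprouty proteins such as Spry1 and Spry2 are induced by FGF signalling and restrain it, and Etv5 is an ETS transcription factor that rises with it, so that these genes are commonly read as signs of pathway activity.

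Libraries held 38774591 to 61051667 counts at E12.5 and 49632937 to 68488879 at E10.5. All 8 cortical markers checked (among them Emx1 and Pax6) were present at both stages. Other tissue was present as well: the summed CPM of 8 ventral telencephalic markers (among them Dlx1 and Nkx2-1) was 486 to 652 over the E12.5 libraries, and that of 6 mesenchymal markers was 503 to 1090 at E12.5 and 741 to 1090 at E10.5. In bulk tissue, fewer cells of a type and less RNA per cell cannot be told apart.

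Levels of different genes were compared per kilobase (kb) of exon. In the E12.5 +/+ neocortex Fgfr3 had the highest level per length, 32.9 ± 3.12 CPM per kb (SD, n = 3), and its libraries did not overlap with those of the next gene. Fgf15 followed at 21.9 ± 2.62 and Fgfr1 at 19.7 ± 1.98, with overlapping libraries, and then Fgfr2 at 14.1 ± 0.950. Spry1, Fgf17 and Etv5 lay between 10.3 and 12.01 CPM per kb and each overlapped with its neighbour in the order. Spry2 stood at 5.94 ± 0.157. The lowest were Fgf8 at 1.48 ± 0.222 and Fgf18 at 1.13 ± 0.252, which overlapped with each other and with no other member.

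In the E10.5 Ctrl vesicles the order was different. Fgfr1 was highest at 28.2 ± 1.91 CPM per kb, followed by Fgf17 at 24.2 ± 2.78, Spry1 at 22.2 ± 1.25, Fgf15 at 18.8 ± 4.07 and Etv5 at 17.01 ± 2.71, each overlapping with the next. Fgf8 stood at 10.4 ± 0.931, close to Fgfr2 at 9.84 ± 0.949. Fgfr3 was ninth of the 10 genes at 6.28 ± 1.77 and overlapped with Spry2 at 7.21 ± 0.949. Fgf18 was again lowest, at 2.74 ± 0.457. The stages differ in dissection, pooling, control genotype and sequencing runs and were scaled separately, so that their levels are given side by side without a test.

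**Figure D1:**
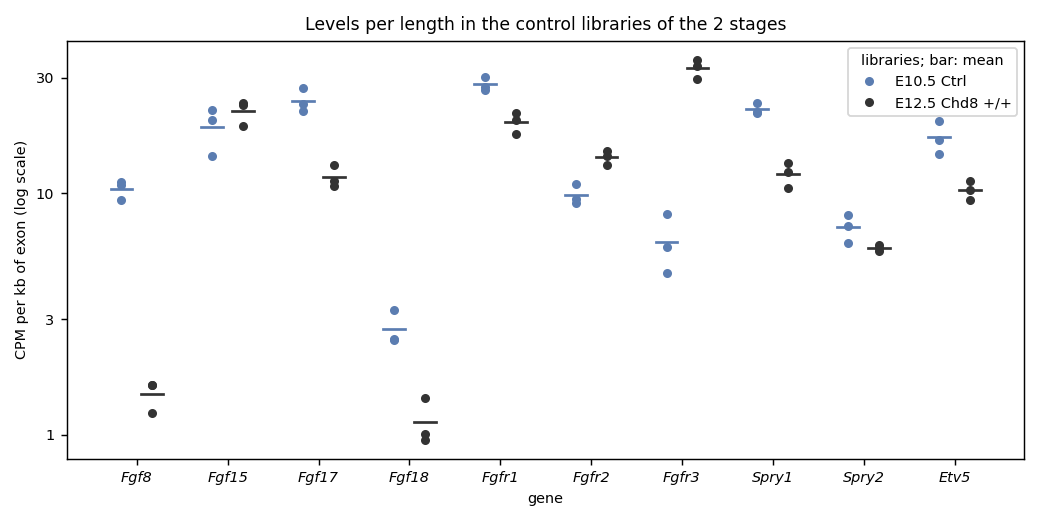
Level of each gene in the control libraries, in CPM per kb of exon on a log axis (points: 3 libraries a group, bars: means). Fgf8 means are 10.4 at E10.5 and 1.48 at E12.5, and Fgfr3 means are 6.28 and 32.9.

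Fgf8 (ENSMUSG00000025219, chr19:45736798-45742915 in GRCm38, minus strand) was the member that changed in the conditional knockout. It was measured at 14.5, 14.97 and 12.6 CPM in the Ctrl libraries and at 8.56, 9.19 and 10.4 CPM in the cKO libraries. Every cKO library lay below every Ctrl library. The log2 fold change was -0.58 ± 0.105 (SE; 95% interval -0.81 to -0.35), a level 0.67 times that of Ctrl (adjusted p = 0.0069, edgeR's quasi-likelihood test with Benjamini-Hochberg adjustment over 18435 genes). It rested on 705 to 761 counts per Ctrl library and 508 to 702 per cKO library. It was the 1 member of 10 with an adjusted p under 0.05, the rule used here to call a change, and 11.4% of all genes tested were called in this comparison (5.7% as lower).

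The other ligands were not called at E10.5. Fgf17 (chr14:70636205-70642268), the closest relative of Fgf8 in this tissue, was 46.0, 39.4 and 36.9 CPM in Ctrl and 29.4, 41.4 and 37.0 in cKO, and the groups overlapped (log2 fold change -0.18 ± 0.129, adjusted p = 0.406, edgeR). Its 95% interval, -0.47 to 0.11, includes part of the interval of Fgf8. Fgf15 (chr7:144896532-144900953) ranged from 25.8 to 39.98 CPM in Ctrl and from 27.9 to 47.2 in cKO. Fgf18 (chr11:33117430-33147400) ranged from 2.93 to 3.88 CPM in Ctrl and from 2.02 to 4.41 in cKO. For both genes the cKO libraries spanned more than the whole Ctrl range on at least 1 side, and the intervals of their log2 fold changes reached from -0.46 to 0.81 and from -0.59 to 0.61.

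None of the feedback genes was called at E10.5. Spry1 (chr3:37639947-37644598) was 62.2, 68.8 and 62.9 CPM in Ctrl and 56.2, 62.0 and 67.7 in cKO (log2 fold change -0.06, 95% interval -0.23 to 0.10). Spry2 (chr14:105891949-105896819) was 15.3, 16.9 and 12.9 CPM in Ctrl and 15.7, 20.5 and 20.2 in cKO (log2 fold change 0.32 ± 0.125, adjusted p = 0.121, edgeR). Etv5 (chr16:22381309-22439719) was 59.8, 81.7 and 67.9 CPM in Ctrl and 76.2, 84.5 and 75.6 in cKO (0.17 ± 0.104, adjusted p = 0.318). The groups overlapped for all 3 genes. Single libraries or the filter decided whether Spry2 and Etv5 were called higher: Spry2 had an adjusted p of 0.0469 without cKO replicate 1 and of 0.0284 without the filter on low counts, and Etv5 one of 0.0246 without Ctrl replicate 2. Other omissions lowered them: the log2 fold change was 0.22 for Spry2 without Ctrl replicate 3 and 0.07 for Etv5 without Ctrl replicate 1.

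No receptor was called at E10.5. Fgfr1 (chr8:25513654-25575714) was 217, 246 and 223 CPM in Ctrl and 259, 250 and 244 in cKO, which overlapped (log2 fold change 0.13, 95% interval -0.0038 to 0.27, adjusted p = 0.196, edgeR). Fgfr2 was 68.4, 66.2 and 79.0 CPM in Ctrl and 70.1, 66.7 and 71.7 in cKO (-0.04, 95% interval -0.20 to 0.12). Fgfr3 (chr5:33721674-33737068) was 42.9, 33.4 and 58.5 CPM in Ctrl and 45.7, 37.4 and 48.0 in cKO. The spread of Fgfr3 within Ctrl was wide, and its interval of -0.60 to 0.51 leaves room for a change of either sign. Across the 10 members the median log2 fold change was -0.01, against a median of -0.0019 over all genes tested.

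**Figure D2:**
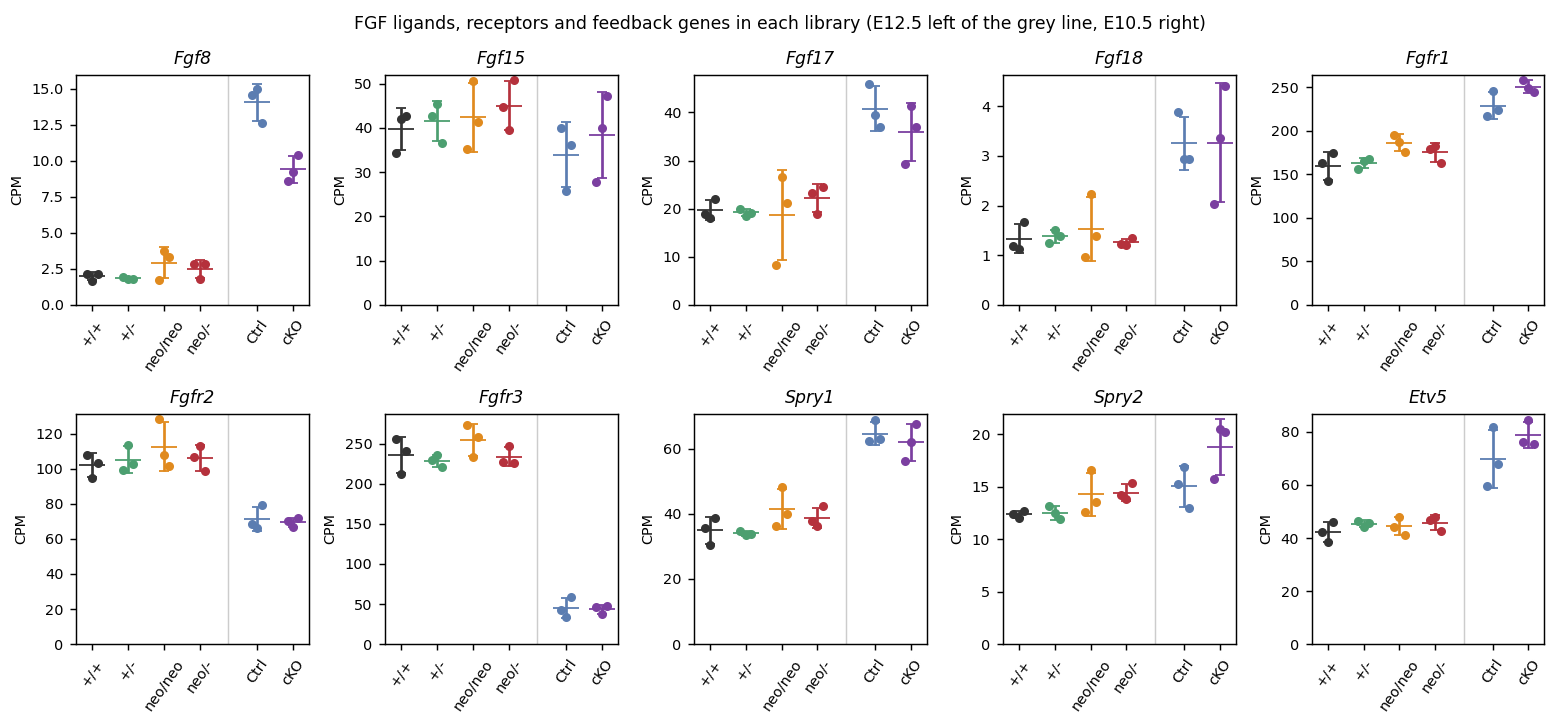
CPM of the 10 genes in each library (points), with the group mean and SD (bars), the 4 E12.5 groups left and the 2 E10.5 groups right of the grey line. Fgf8 is 12.6 to 14.97 CPM in Ctrl and 8.56 to 10.4 in cKO; in the neo/neo group Fgf17 runs from 8.19 to 26.5.

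Several regional and cell type markers moved with the same E10.5 groups. Of 8 markers of the isthmus and midbrain, another place where Fgf8 is made, 5 could be tested: Pax8 was lower (log2 fold change -1.62, adjusted p = 0.0108, edgeR), Lmx1b was higher (0.53, adjusted p = 0.00958), and En1, En2, Gbx2, Pax8 and Wnt1 averaged under 1 CPM in both groups. The summed CPM of this list was 25.2 to 35.6 in Ctrl and 32.0 to 34.5 in cKO. The sum of 8 markers of the cortical hem and choroid plexus was 309 to 354 in Ctrl and 417 to 475 in cKO, with Wnt8b, Lmx1a and Bmp4 called higher and Ttr under 1 CPM. The sum of 6 mesenchymal markers was 741 to 818 in Ctrl and 936 to 1090 in cKO, with Col3a1, Pdgfra and Col1a2 called higher. The sum of 8 ventral telencephalic markers was 16 to 25 in Ctrl and 10 to 16.5 in cKO, with Gsx2 called lower, while none of the 8 cortical markers was called. Among the lists for blood, endothelium, neurons, progenitors and surface ectoderm, the endothelial gene Cdh5 alone was called (higher, 0.25, adjusted p = 0.0484). The part of these differences in the fall of Fgf8 was not tested.

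At E12.5 no member was called in any of 6 comparisons between the genotypes. In +/- against +/+, 0 of 10 members were called by edgeR or DESeq2, and 0.0213% of all genes tested were called. In edgeR, 0 members and 1190 of 18810 genes tested had an unadjusted p under 0.05. Against +/+, edgeR called 0 members in neo/neo, where it called 8.16% of genes, and 0 in neo/-, where it called 11.5%. Unadjusted p-values under 0.05 in edgeR were found for 4 members in neo/neo and for 1 in neo/-. They were found for 4746 and 4991 of 18810 genes tested, in that order. DESeq2 called 1 member (Fgfr1) and 0. Against +/-, edgeR called 0 members in neo/neo (5.28% of genes) and 0 in neo/- (5.43%), and DESeq2 called 0 in both. An unadjusted p under 0.05 in edgeR was found for 5 and 1 members and for 4369 and 4232 of 18810 genes tested. With the replicate number as a block, neo/neo against +/- had 572 genes called in place of 994, and 0 members called. With this block 4 members and 4212 of 18810 genes tested had an unadjusted p under 0.05. Between neo/- and neo/neo edgeR called 0 members and 0.0159% of genes, and DESeq2 called 0 members. No member and 1585 of 18810 genes tested had an unadjusted p under 0.05 in edgeR. Fold changes were mostly positive: 9 of 10 members were higher on average in neo/neo (median log2 fold change 0.17, all genes tested 0.0053) and 8 of 10 in neo/- (0.14, all genes tested 0.0011). Of the marker lists, Pax6 and Sox2 were called higher and Kdr and Dcx lower in neo/neo, and in neo/- 3 of 6 blood markers were called higher and Wnt5a and Dcx lower. The part of these in the members' values was not tested. The comparisons with +/+ share its libraries and those with +/- share theirs, and p-values measure only the spread between these samples.

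Fgfr1 came closest in the hypomorphs. It was 163, 142 and 174 CPM in +/+, 156, 165 and 167 in +/-, 195, 187 and 176 in neo/neo, and 179, 183 and 163 in neo/-. All neo/neo libraries lay above all +/+ and +/- libraries, while neo/- overlapped with +/+. The log2 fold change of neo/neo over +/+ was 0.22 ± 0.0673 (95% interval 0.08 to 0.37, adjusted p = 0.0588, edgeR). DESeq2 called it, with an adjusted p of 0.0264, and so did edgeR without +/+ replicate 3 (log2 fold change 0.30, adjusted p = 0.0302) or without neo/neo replicate 3 (0.25, adjusted p = 0.0405). Without +/+ replicate 2 it was 0.15 (adjusted p = 0.192, edgeR).

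The remaining receptors overlapped between the genotypes. Fgfr3 averaged 236 ± 22.3 CPM (SD, n = 3) in +/+, 229 ± 7.28 in +/-, 255 ± 19.9 in neo/neo and 234 ± 11.9 in neo/-. Fgfr2 was 108, 94.6 and 103 CPM in +/+, 128, 108 and 102 in neo/neo, and 107, 113 and 98.6 in neo/-. The log2 fold changes of both genes in neo/neo and neo/- lay between -0.01 and 0.14 with adjusted p-values of at least 0.338 (edgeR). In the counting annotation, the gene model of Fgfr2 (chr7:130162451-133123350) holds 2 of 23 exon entries, with 314 bases, far from the rest beyond position 133081757, where they overlap with exons of Ctbp2, and the rest ends at 130266263.

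Fgf8 was low at E12.5, with 70 to 228 counts per library. It was 2.17, 1.65 and 2.17 CPM in +/+, 1.95, 1.80 and 1.76 in +/-, 1.70, 3.77 and 3.31 in neo/neo, and 2.86, 1.79 and 2.82 in neo/-. In both hypomorphs 2 libraries lay above every +/+ library and 1 lay within the +/+ range. The log2 fold change over +/+ was 0.56 ± 0.255 in neo/neo (adjusted p = 0.189, edgeR) and 0.31 ± 0.259 in neo/- (adjusted p = 0.505). Without neo/neo replicate 1 the first became 0.82, with an adjusted p of 0.0413, and without neo/neo replicate 2 it became 0.34 (adjusted p = 0.532, edgeR). The value in neo/- ran from 0.19 without neo/- replicate 1 to 0.50 without neo/- replicate 2, and was not called in either.

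The fall of Fgf8 in the cKO and its values in neo/- were compared directly. These comparisons differ together in stage, tissue, pooling, Chd8 alleles and sequencing runs, so a difference between them cannot be assigned to any of these. The difference between the 2 log2 fold changes was -0.88 ± 0.300 (95% interval -1.52 to -0.25, unadjusted p = 0.0092, adjusted p = 0.0888, edgeR over 19565 genes), which did not pass the threshold. DESeq2 gave -0.87 with an adjusted p of 0.0335, and without neo/- replicate 2 edgeR gave -1.08 with an adjusted p of 0.0433. No member was called in this comparison, in which 6.79% of genes tested were called.

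**Figure D3:**
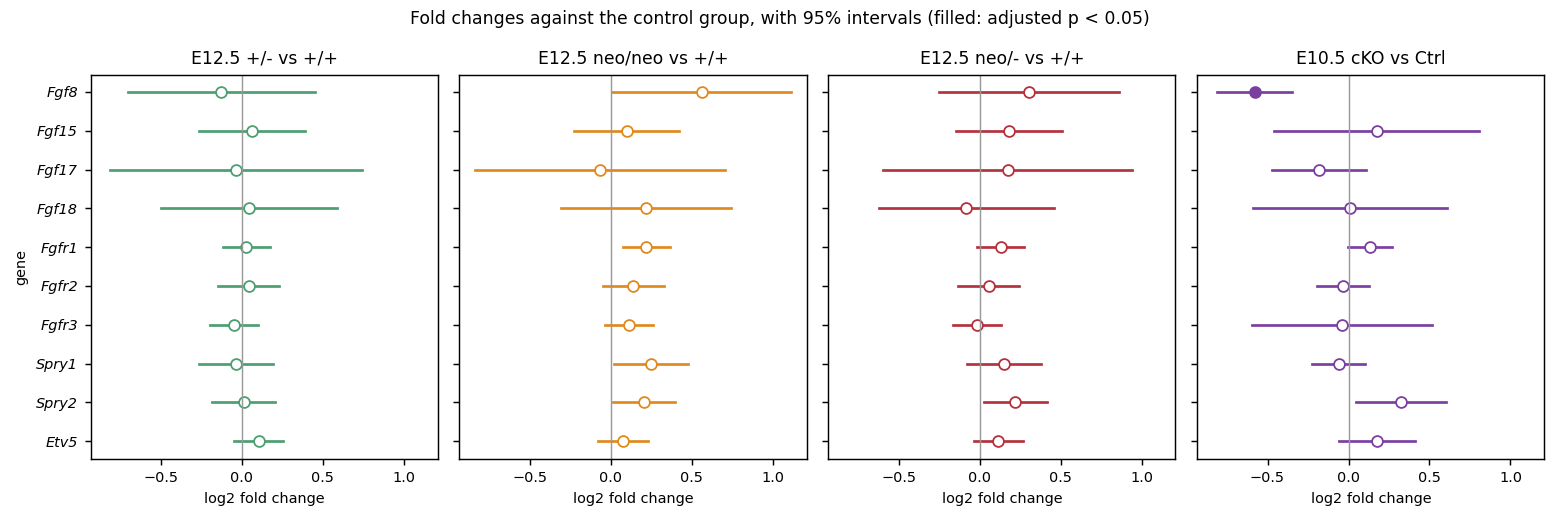
Log2 fold change of each gene against its control group (points) with 95% intervals (lines). The filled point is Fgf8 in the cKO at -0.58; open points did not pass an adjusted p of 0.05, and the widest intervals at E12.5 belong to Fgf17 and Fgf8.

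The other E12.5 ligands overlapped between the genotypes, and each varied most within neo/neo. There the SD was 50.5% of the mean for Fgf17, 42.0% for Fgf18 and 18.4% for Fgf15. In the other E12.5 groups it was at most 13.1%, 22.4% and 12.4%, in that order. Fgf17 was 18.98, 18.02 and 22 CPM in +/+, 19.98, 18.5 and 19.1 in +/-, 8.19, 26.5 and 21.2 in neo/neo, and 23.2, 18.95 and 24.5 in neo/-. The neo/neo group held both the lowest and the highest of the 12 libraries. Fgf15 was 34.2, 42.1 and 42.8 CPM in +/+ and 35.1, 50.7 and 41.4 in neo/neo, with +/- between 36.5 and 45.3 and neo/- between 39.6 and 50.8. Fgf18 was 1.19, 1.13 and 1.68 CPM in +/+ and 0.968, 2.23 and 1.39 in neo/neo, on 41 to 135 counts per library over all E12.5 groups. Without neo/neo replicate 1, the log2 fold change of Fgf17 over +/+ moved from -0.07 to 0.27 and that of Fgf18 from 0.22 to 0.44, and without neo/neo replicate 2 they moved to -0.41 and -0.17. Neither gene was called in any of these fits (adjusted p from 0.23 to 0.73, edgeR).

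Spry1 and Spry2, inhibitors that FGF signalling induces, were the feedback genes with the larger differences at E12.5. Spry1 was 35.6, 30.5 and 38.7 CPM in +/+, 34.8, 33.4 and 33.9 in +/-, 36.3, 48.3 and 39.9 in neo/neo, and 37.8, 36.2 and 42.3 in neo/-. All libraries of both hypomorphs lay above those of +/-, but not above those of +/+. Spry2 was 12.4, 12.1 and 12.7 CPM in +/+, 13.2, 12.5 and 11.9 in +/-, 12.6, 16.6 and 13.6 in neo/neo, and 14.2, 13.8 and 15.3 in neo/-, so that neo/- lay above both +/+ and +/-. The largest log2 fold changes over +/+ were 0.25 ± 0.104 for Spry1 in neo/neo (adjusted p = 0.159, edgeR) and 0.22 ± 0.0901 for Spry2 in neo/- (adjusted p = 0.129). Without neo/neo replicate 2 the value of Spry1 was 0.12 (adjusted p = 0.505, edgeR). Fitted with only the 6 libraries of +/+ and neo/-, Spry2 had an adjusted p of 0.0475. Etv5, which lay between 38.4 and 48.0 CPM in all 12 libraries, overlapped between all genotypes, with 95% intervals of its log2 fold change over +/+ from -0.08 to 0.23 in neo/neo and from -0.04 to 0.27 in neo/-.

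The 250 bases before the RefSeq start sites of Spry1 and Spry2 (GRCm38.p6) are shown because these genes varied together across the E12.5 libraries, as described next. Capitals mark GGAA on either strand, the core of sites that ETS factors such as Etv5 bind. The Spry1 stretch is chr3:37639697-37639946 on the plus strand and the Spry2 stretch is chr14:105896820-105897069 on the minus strand, each written 5′ to 3′.
Spry1: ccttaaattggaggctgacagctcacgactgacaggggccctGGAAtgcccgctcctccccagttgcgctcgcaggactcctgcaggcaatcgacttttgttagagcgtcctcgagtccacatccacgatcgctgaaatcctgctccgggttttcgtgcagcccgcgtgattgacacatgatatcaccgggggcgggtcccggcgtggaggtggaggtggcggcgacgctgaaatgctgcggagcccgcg
Spry2: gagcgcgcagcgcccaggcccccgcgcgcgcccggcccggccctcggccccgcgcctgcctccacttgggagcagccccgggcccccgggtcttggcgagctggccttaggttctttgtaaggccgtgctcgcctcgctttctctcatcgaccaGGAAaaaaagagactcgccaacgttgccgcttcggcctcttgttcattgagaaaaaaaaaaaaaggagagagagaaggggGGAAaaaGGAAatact
The Spry1 stretch holds 1 such core and the Spry2 stretch 3, where the median over 32851 mouse promoter stretches of this length is 3, and 93.4% of them hold at least 1. The longer letters CCGGAAG (an ETS core) and CTTTGAT (a TCF/LEF core, the readout of Wnt signalling) were searched on both strands of 300-base windows, which were given for 6 of the 10 genes (8 windows). Neither was found in any of the 8, while 8.86% and 3.73% of all windows held them. A match describes letters and not binding, and the lack of one says only that these letters are not in this window.

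Across the 12 E12.5 libraries, Spry1 and Spry2 had a Pearson r of 0.886 (permutation p = 0.00017, adjusted p = 0.00382 over 45 pairs of members), or 0.77 without the 2 libraries farthest from the median of Spry1, and a Spearman rho of 0.818 (permutation p = 0.00191, adjusted p = 0.043). Fgf8 varied with both sprouties. Over log2 CPM, Fgf8 and Spry1 had a Pearson r of 0.869 (permutation p = 0.00014, adjusted p = 0.00382) and a Spearman rho of 0.776 (permutation p = 0.00415, adjusted p = 0.0614). Fgf8 and Spry2 had an r of 0.808 (permutation p = 0.00166, adjusted p = 0.0249) and a rho of 0.72 (permutation p = 0.0109, adjusted p = 0.082). Leaving out the 2 libraries farthest from the median of Fgf8 gave an r of 0.778 and 0.757. These pairs were picked with the values of all pairs known. The permutations shuffled all 12 libraries without regard to genotype, so their p-values also take in differences between the genotype means. Other pairs passed as well, each with an adjusted permutation p of 0.0469 for Pearson r. They were Fgf15 with Spry2 (0.735), Fgf15 with Fgf17 (0.662), Fgfr1 with Fgfr2 (0.752) and Fgfr2 with Fgfr3 (0.724). None of these passed by Spearman rho (adjusted permutation p from 0.148 to 0.151). Leaving out the 2 libraries farthest from the median of the first gene gave an r of 0.767, 0.739, 0.441 and 0.298, in that order. Fgf8 and Fgf17 passed by rank alone, with a rho of 0.853 (adjusted permutation p = 0.0418) and a Pearson r of 0.614 (adjusted permutation p = 0.113).

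The rank correlations of Fgf8 with Spry1 and with Spry2 did not pass the adjustment. Over the 6 E10.5 libraries, where Fgf8 did not overlap between Ctrl and cKO, its r was 0.589 with Spry1 and -0.423 with Spry2, given without a test. With each group's mean removed, Fgf8 had an r of 0.787 with Spry1, 0.751 with Spry2 and 0.915 with Fgf17 over the 12 libraries, given as a description. In the same way Fgf18 had an r of 0.851 with Spry1 and 0.816 with Spry2, so high values after this removal were not particular to Fgf8. With the group means kept, the r of Fgf18 was 0.653 and 0.538 (adjusted permutation p = 0.113 and 0.168). Leaving out the 2 libraries farthest from the median of Fgf18 gave 0.371 and -0.0574. Groups of 3 are too small for a value within each. The neo/neo libraries contributed much of this spread: replicate 1 was the lowest of its group for all 4 ligands and both sprouties and the highest for all 3 receptors, and replicate 2 was the highest for all 4 ligands, both sprouties and Etv5. Regional markers also differed between these libraries. The ventral telencephalic sum was 507 CPM in replicate 1, 616 in replicate 2 and 578 in replicate 3, and the hem and choroid plexus sum was 250, 193 and 204. Their part in the spread of the ligands was not tested.

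**Figure D4:**
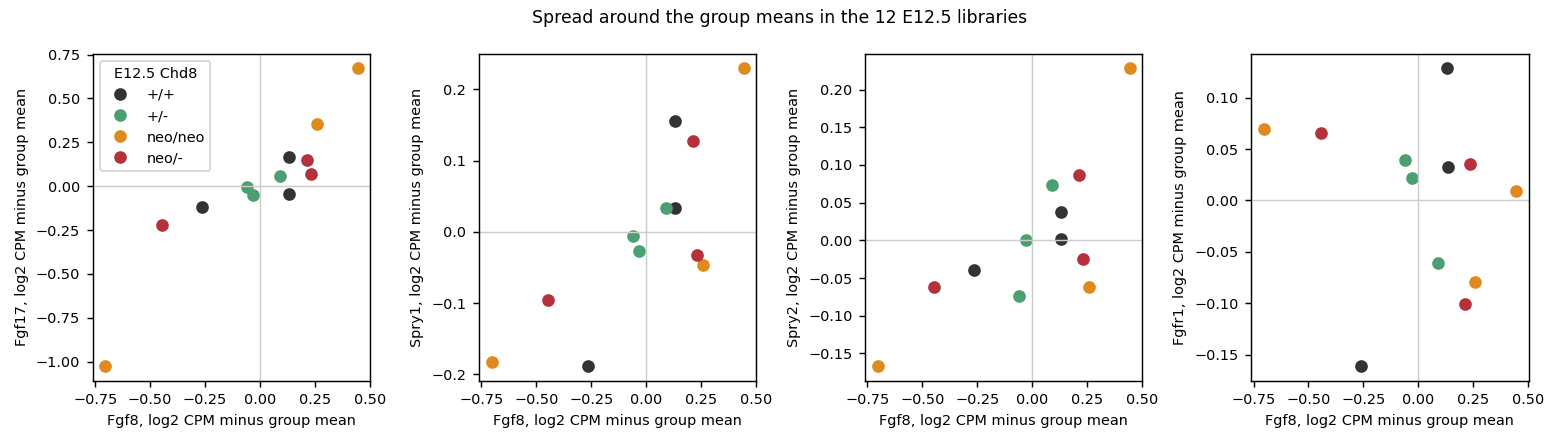
Each E12.5 library's deviation from its group mean in log2 CPM, for Fgf8 (horizontal) against Fgf17, Spry1, Spry2 and Fgfr1 (vertical); colours are genotypes. The correlation of deviations is 0.915 for Fgf17, 0.787 for Spry1 and 0.751 for Spry2, and the neo/neo libraries are at both ends.

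For the member with the smallest adjusted p at each stage, the 5 genes with the most similar levels over libraries were listed as a description. For Fgfr1 over 12 libraries and 18810 genes they were Ticrr, Ints1, Chtf18, Khsrp and E2f8, with Pearson r of 0.964 to 0.974. For Fgf8 over 6 libraries and 18435 genes they were Msmo1, an enzyme of cholesterol synthesis, with an r of 0.999, and Tmem132b, Map7d3, Gm38309 and Mcts1, with r of 0.988 to 0.994. With so few libraries many genes reach such values.

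The other genes of the pathway were read from 7 lists with 73 genes, which leave out the 10 members. Of those tested, 0 of 61 were called in +/-, 7 of 61 in neo/neo, 7 of 61 in neo/- and 8 of 59 in cKO, or 11.5%, 11.5% and 13.6% in the last 3, near the 8.16%, 11.5% and 11.4% of all genes tested. The list of other secreted ligands, from Fgf1 to Fgf23, had none called of the 6 tested at E12.5 and 5 tested at E10.5, and the cortical area factors Sp8, Six3, Nr2f1, Nr2f2 and Emx2 had none of 5 at either stage.

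Among proteins that bind FGFs or their receptors, Cnpy1 and Fgfbp3 fell in the cKO. Cnpy1, known in fish as a partner of FGF receptors in the midbrain and hindbrain, was 5.50, 5.77 and 3.54 CPM in Ctrl and 2.38, 2.63 and 2.48 in cKO (log2 fold change -0.98 ± 0.176, adjusted p = 0.00673, edgeR). Flrt1, a transmembrane protein that can bind FGF receptors, rose from 6.76, 7.22 and 7.92 CPM to 9.61, 12.01 and 10.1 (0.54 ± 0.112, adjusted p = 0.0131). At E12.5, Fgfrl1, a receptor without a kinase domain, rose in neo/neo from 23.5, 20.4 and 23.9 CPM to 29.3, 27.7 and 28.1 (0.33 ± 0.0766, adjusted p = 0.0204), and Flrt2 fell there (-0.33 ± 0.0835, adjusted p = 0.0319). In all, 3 of 9 tested genes of this list were called in cKO, 3 of 9 in neo/neo and 1 of 9 in neo/-, where 11.4%, 8.16% and 11.5% of all genes tested were called, and the single gene of neo/- is about that share.

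Fgfbp3, a secreted carrier of FGFs, was higher in both E12.5 hypomorphs and lower in the E10.5 cKO. It was 30.6, 24.8 and 26.3 CPM in +/+, 41.6, 42.2 and 33.7 in neo/neo and 37.9, 37.2 and 34.9 in neo/-, with both hypomorphs above every +/+ library (log2 fold changes 0.52 ± 0.0892 and 0.43 ± 0.0893, adjusted p = 0.00563 and 0.00856, edgeR). At E10.5 it was 30.5, 25.3 and 26.02 CPM in Ctrl and 19.9, 21.03 and 20.8 in cKO (-0.41 ± 0.0856, adjusted p = 0.0135). Its chromosome 19 neighbours within 500 kb were read as well. Ide, known to vary in copy number together with Fgfbp3 among C57BL/6J mice, was 129, 136 and 138 CPM in +/+ and 262, 202 and 260 in neo/- (log2 fold change 0.84, adjusted p = 0.000173), but 147, 141 and 128 in neo/neo (0.04, adjusted p = 0.802), and 145, 198 and 140 in Ctrl against 213, 237 and 186 in cKO (0.39, adjusted p = 0.157). Btaf1, which lies between them, was also higher in neo/- (0.32, adjusted p = 0.0021). Copy number was not measured here, and its part in these values was not tested.

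Of 10 tested genes that FGF signalling induces or that restrain it, beyond those above, none was called at E12.5, where 8.16% of all genes tested were called in neo/neo and 11.5% in neo/-. At E10.5 2 of 10 were called, against 11.4% of all genes: Etv4 rose and Spred3 fell. Etv4, an ETS factor close to Etv5, was 23.9, 26.03 and 25.1 CPM in Ctrl and 29.4, 33.8 and 34.9 in cKO (log2 fold change 0.39 ± 0.0813, adjusted p = 0.0135, edgeR). Spred3, of a family that restrains Ras and ERK signalling, was 43.6, 51.2 and 45.4 CPM in Ctrl and 36.9, 36.5 and 41.2 in cKO (-0.29 ± 0.0789, adjusted p = 0.0377). Dusp6, an ERK phosphatase that FGF signalling induces, was 138.8, 160.8 and 143.2 CPM in Ctrl and 161.5, 164.3 and 161.1 in cKO, just without overlap (0.14 ± 0.064, adjusted p = 0.194). Spry4 ranged from 8.65 to 12.6 CPM in Ctrl and from 11.2 to 14.3 in cKO (adjusted p = 0.17).

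Of 22 adaptors and kinases between receptor and ERK, 2 rose and none fell in neo/neo, 2 rose in neo/-, and 3 rose and none fell in cKO, where 8.16%, 11.5% and 11.4% of all genes tested were called. Shc1, an adaptor of receptor tyrosine kinases, was called higher in all 3: it was 42.9, 34.2 and 35.8 CPM in +/+, 46.2, 49.3 and 47.6 in neo/neo and 48.5, 51.3 and 49.3 in neo/-, and 68.1, 79.5 and 74.3 CPM in Ctrl and 93.7, 91.2 and 97.8 in cKO. Its log2 fold changes were 0.34 ± 0.0852, 0.40 ± 0.0852 and 0.35 ± 0.067 (adjusted p = 0.0289, 0.00933 and 0.00916, edgeR). Map2k2, which encodes the ERK kinase MEK2, was also higher in all 3, by a log2 value of 0.13, 0.12 and 0.24 (adjusted p = 0.0466, 0.044 and 0.0268). Hras rose in cKO (0.32 ± 0.0601, adjusted p = 0.00859), and the adaptor Frs3 was lower in neo/- (-0.27, adjusted p = 0.0394).

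The intracellular FGF homologues, which are not secreted and act on sodium channels in neurons, had 1 called gene of 4 in each hypomorph. Of all genes tested, 8.16% were called in neo/neo and 11.5% in neo/-. With so few genes, 1 call cannot be set apart from these shares. Fgf11 was 17.4, 16.4 and 15.3 CPM in +/+, 11.9, 10.95 and 14.5 in neo/neo and 12.9, 11.5 and 13.3 in neo/-, without overlap with +/+ (log2 fold changes -0.40 ± 0.104 and -0.39 ± 0.104, adjusted p = 0.0325 and 0.0287, edgeR). The neuronal marker Dcx was also called lower in both hypomorphs, and the sum of 5 neuronal markers was 2480 to 2950 CPM in +/+, 2060 to 2430 in neo/neo and 2260 to 2570 in neo/-. Their part in the fall of Fgf11 was not tested. Of 5 tested immediate early genes, Ier2 alone was called higher, in neo/neo (0.31 ± 0.0613, adjusted p = 0.0108) and neo/- (0.28 ± 0.0614, adjusted p = 0.00979). None of 4 was called in cKO, where 11.4% of all genes tested were called. These counts too are over so few genes that they cannot be set apart from the shares of all genes.

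**Figure D5:**
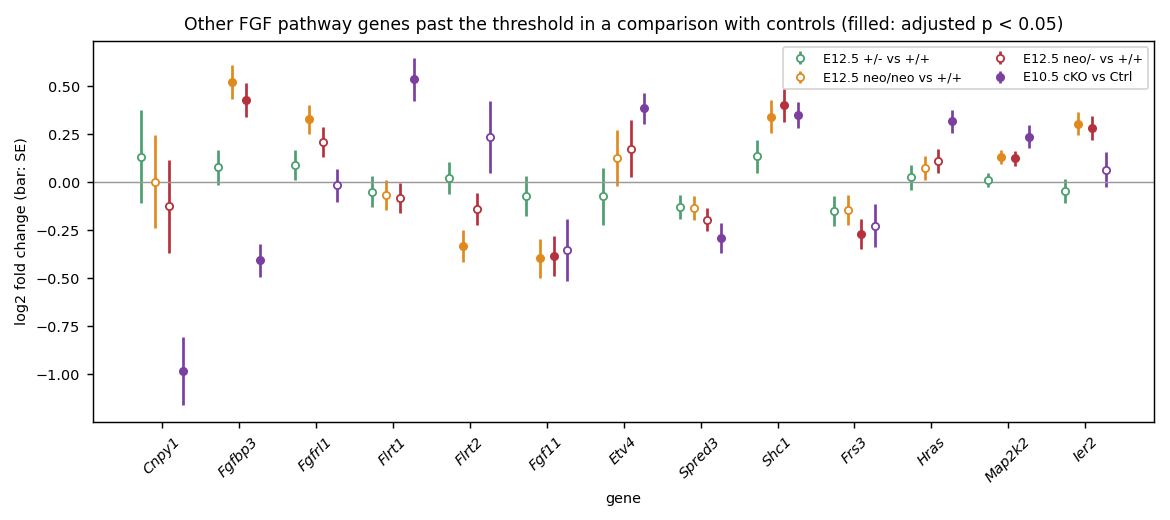
Log2 fold change (points, SE as bars) of other pathway genes called in at least 1 comparison with controls; filled points passed an adjusted p of 0.05. Shc1 and Map2k2 are filled in 3 comparisons, and Fgfbp3 is positive at E12.5 (0.52 and 0.43) and negative in the cKO (-0.41).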

How the data were processed

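RNA-seq of 18 libraries in 6 groups of 3 was used. Per the methods and the labels, the authors selected mRNA, made dUTP libraries, trimmed paired reads with Trim Galore 0.4.1, aligned them to GRCm38.p4 with TopHat 2.1.0 and counted read pairs on Ensembl genes with featureCounts 1.5.0. The authors deposited unnormalized counts for every gene, with a column for each of the 36 runs. The counting command in the file header sets no strand option. Exons of another gene overlap 24.4% of the exon bases of Spry1, 26.4% of Fgf15 and 13.9% of Fgfr3 (an opposite-strand transcript in each), 4.34% of Fgfr2, 2.02% of Fgfr1 and none of the others; pairs that fall on 2 genes are left out by default.

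The 2 runs of a library were summed. Counts were tested in R 4.3.3 with edgeR 4.0.16 (filterByExpr, TMM, robust quasi-likelihood fit, Benjamini-Hochberg over all genes tested), with the 12 E12.5 libraries in 1 fit, the 6 E10.5 libraries in another, and all 18 for the difference of effects. The code was tested on simulated data. Levels are CPM with TMM factors of each stage, or the same per kb. Over 3 libraries against 3 an exact permutation test of a single value cannot go below p = 0.1, so none was used. Correlations used 100000 permutations of the 12 E12.5 libraries, two-sided and not kept within genotypes.

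All 10 members passed the filter at both stages. The members, the 7 pathway lists and the marker lists were chosen with earlier results of these data known. Named were all members, the pathway genes called against a control (at most 8 a comparison), Chd8 and the 5 most similar genes; Dusp6, Spry4, Ide, Btaf1 and the marker genes were added after their values were seen. Of the pathway genes listed, 1 (Spry3) had no match and was not analysed here; some genes of the lists are counted but not reported by name here. Promoters are from RefSeq (GRCm38.p6); Fgf8, Fgf15, Fgf17 and Fgfr1 had no entry.

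Replicate numbers were checked for pairing. Deviations of same-numbered libraries correlated above 0.1 in every pair for neo/neo and +/- alone (r = 0.194, 0.188 and 0.362 over the most variable genes). Per the paper, embryos of these genotypes came from different crosses, and what a number stands for is not known. The main values for this comparison are from the unpaired fit, and those with the replicate number as a block are given beside them. Alternatives were other scaling (RLE, upper quartile), no filter, DESeq2 1.42.0, the replicate block, only the 2 groups compared, each run alone, sex-linked expression as a covariate and leaving out each library. Xist exceeded Y-linked counts in 1 of 3 libraries in +/+, 1 in +/-, 2 in neo/neo and 0 in neo/-, so sex was unbalanced. With this covariate, calls over all genes were 387 in place of 994 in neo/neo against +/-, and 1928 in place of 2158 in neo/- against +/+.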

Additional observations from a re-analysis of the deposited data

Results flagged for a closer look

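Of 64 pathway genes tested, 3 (4.69%) had a log2 fold change in cKO over Ctrl that differed from that in neo/- over +/+, and no member did. This was edgeR's quasi-likelihood test of the difference, adjusted over 19565 genes, which called 6.79% of all genes tested. The share of pathway genes was thus not above that of all genes. The difference was -0.84 for Fgfbp3 (adjusted p = 0.000874), which was lower in 3 of 3 cKO libraries than in every Ctrl library and higher in 3 of 3 neo/- libraries than in every +/+ library. It was 0.62 for Flrt1 (adjusted p = 0.00921), called higher in cKO only. It was 0.24 for Ptpn11, a phosphatase needed for ERK activation (adjusted p = 0.0218), which was not called within either comparison. Stage, tissue, pooling, Chd8 alleles and sequencing runs differ together between the comparisons, so these differences cannot be assigned to any of them.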

How the results depend on the processing

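The fall of Fgf8 in the cKO was called in all 13 alternatives, with log2 fold changes from -0.66 to -0.52 and adjusted p-values from 3.09e-05 to 0.0477. Over members, comparisons and alternatives, 1548 of 1560 values stayed on their side of the threshold, and 12 passed it that had not before. The count of members called rose from 0 to 1 in neo/neo against +/+ with DESeq2 and with the second run alone, in neo/- against +/+ with only the 2 groups compared, in neo/neo against +/- with the first run alone (Fgf8, 0.90, adjusted p = 0.0499, edgeR), and for the difference of effects with DESeq2. It rose from 1 to 2 in the cKO without the filter on low counts. Leaving out 1 library gave 0 to 1 in neo/neo against +/+, 1 to 2 in the cKO and 0 to 1 for the difference of effects. The cause of these changes was not tested.

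The count of other pathway genes moved more. In neo/neo against +/+ (7) it was 3 with only the 2 groups, 4 with the second run alone and 4 with the sex-linked covariate. In neo/- against +/+ (7) it was 11 with DESeq2 and 4 with either run alone. In neo/neo against +/- (3) it was 6 with DESeq2, 0 with only the 2 groups and 1 with the second run alone. In neo/- against +/- (2) it was 7 with DESeq2, 6 with only the 2 groups and 1 with the sex-linked covariate. Leaving out 1 library gave 1 to 12 and 3 to 11 against +/+ and 0 to 8 and 0 to 6 against +/-, for neo/neo and neo/- in that order. It gave 2 to 9 in the cKO and 2 to 5 for the difference of effects. The lowest and highest counts for neo/neo against +/+ came without neo/neo replicates 2 and 3, and those for the cKO without cKO replicate 2 and Ctrl replicate 2.

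With the replicate number as a block, calls over all genes in neo/neo against +/-, whose same-numbered libraries correlated, were 572 in place of 994. Other pathway genes called there were 3. Other pathway genes called under the block were 4 in neo/- against +/+ and 1 in neo/- against +/-, and Fgf8 in the cKO kept its log2 fold change of -0.58 (adjusted p = 0.0128, edgeR). The block changed no call of a member.

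Over all genes, calls outside the library omissions ranged from 430 to 2262 in neo/neo against +/+ (1534 as reported), 42 to 1788 in neo/neo against +/- (994), 676 to 1669 in neo/- against +/- (1021), 1 to 12 in +/- against +/+ (4) and 1 to 26 in neo/- against neo/neo (3), 1572 to 2687 in neo/- against +/+ (2158), 1796 to 2722 in the cKO (2110) and 1130 to 1873 for the difference of effects (1329). Leaving out 1 library moved these counts further: 435 to 2605 in neo/neo against +/+ and 23 to 2100 in neo/neo against +/- (lowest without neo/neo replicate 2, highest without neo/neo replicate 3), 1015 to 2574 in neo/- against +/+ (lowest without neo/- replicate 2), 244 to 1439 in neo/- against +/-, 538 to 2483 in the cKO and 533 to 1796 for the difference (lowest without cKO replicate 2). The shares of all genes called that stand beside the members' counts move with them. Fgf18 and Fgf8 rested on at least 41 and 70 counts per E12.5 library, which limits their precision together with 3 libraries a group.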
